A study of Rattus norvegicus with 44 samples.

Results

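The comparison described here sets the rat neural precursor clone Ge6 against the clone Ge2 after 7 days of differentiation. It rests on the 3 arrays titled Ge6 at day 7 and the 3 titled Ge2 at day 7, 6 of the 44 arrays of the series. The labels describe Ge6 as a GABAergic neuronal precursor and Ge2 as a nonneuronal neural precursor. Both clones had been expanded on laminin and poly-lysine with FGF2 in the medium, a growth factor that keeps neural precursors dividing. For differentiation the FGF2 was taken away, and both clones received the same DMEM/F12 medium with the supplement B27 and a little fetal bovine serum for survival. The study followed 5 such clones at days 0, 3 and 7 of differentiation. Replicates were sister cultures of the same clone, so p-values weigh a difference against the spread among cultures only, and what differs is 1 clone from 1 other clone and not a kind of precursor from another.

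The ganglionic eminences, in the ventral part of the embryonic forebrain, give rise to most inhibitory neurons of the forebrain. Their precursors use the Dlx homeodomain factors, and the neurons they form make the transmitter GABA with glutamate decarboxylase and load it into vesicles with a dedicated transporter. A precursor that becomes an astrocyte instead leaves the neuronal programme silent and turns on genes for intermediate filaments, lipoproteins, glutamate uptake and extracellular matrix.

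Of 12749 genes with a probe set, 7457 (58.5%) differed between the clones at day 7 at an adjusted p under 0.05 by limma with Benjamini-Hochberg adjustment. Such genes are called here. Higher in Ge6 were 3520 genes (27.6%), and lower in Ge6 were 3937 (30.9%). Every count of called list members below is to be read beside these shares. With at least a 2-fold difference there were 1128 genes higher in Ge6 (8.85%) and 1447 lower (11.3%). A difference of at least 16-fold was found for 108 genes on the Ge6 side and 84 on the Ge2 side, and one of at least 64-fold for 18 and 12. The median difference of all genes was -0.004 on the log2 scale, so the lists below are read against a centre close to 0. Sister cultures resembled each other closely, with correlations of log2 intensities from 0.9918 to 0.9962 over 6 pairs of arrays, whereas the 9 pairs of a Ge6 and a Ge2 array lay between 0.8828 and 0.8901. Arrays of the 2 clones that do not overlap were common. All Ge6 arrays lay above all Ge2 arrays in 3719 genes and below them in 4033, while 4997 overlapped. Array medians were 26.8 to 27.9 in Ge6 and 27.2 to 27.8 in Ge2. Intensities of 16.3 or less, the 40th percentile of all values in the series, are called near background. The lower mean was near background in 325 of the 1128 genes and 273 of the 1447, and for those the printed difference depends on that background.

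**Figure D1:**
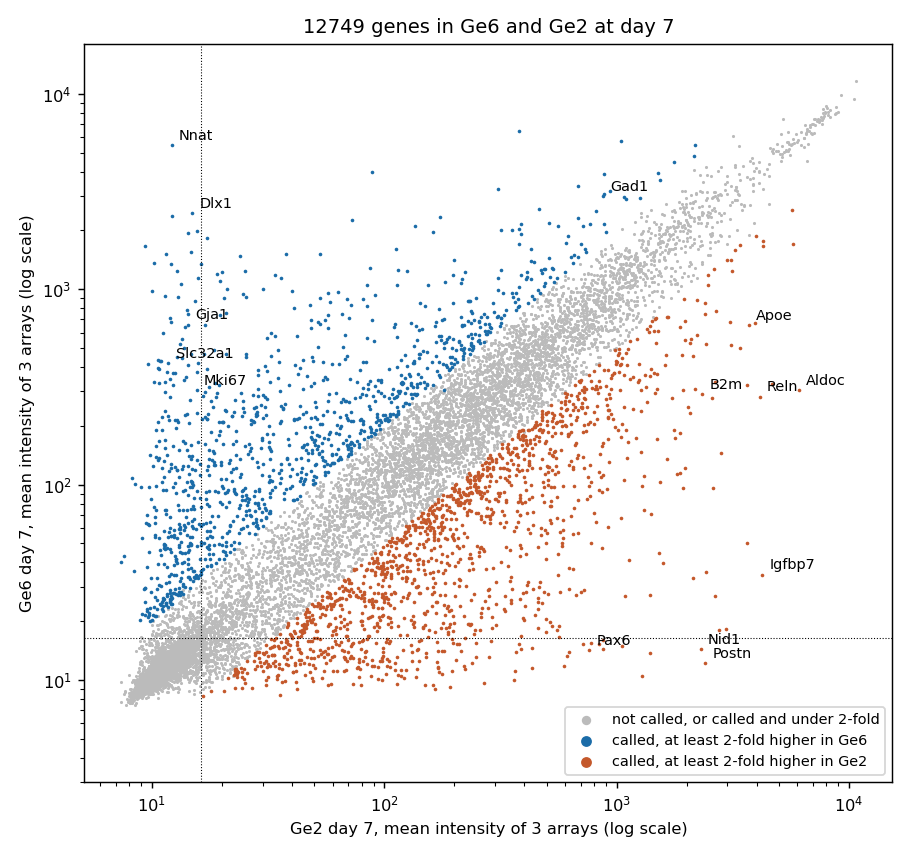
Mean intensity of each of 12749 genes over the 3 Ge6 arrays (vertical axis, log scale) against that over the 3 Ge2 arrays (horizontal axis, log scale) at day 7. Blue points are the 1128 genes called and at least 2-fold higher in Ge6, orange points the 1447 called and at least 2-fold higher in Ge2, grey points all others, and thin lines mark the background level of 16.3. Many strongly different genes lie along the background line of one clone.

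The 15 largest differences towards Ge6 included Dlx1, Mapt, Dcx and Tubb3, described with their groups. Nnat, which encodes the small membrane protein neuronatin of developing brain, read 5346, 5525 and 5473 on the Ge6 arrays and 10.1, 12.8 and 13.7 on the Ge2 arrays. Its log2 difference of 8.82 (SE 0.08, adjusted p = 7.47e-41 by limma) was the highest of all called genes. Igfbpl1, an insulin-like growth factor binding protein relative, followed Mapt with a log2 difference of 7.50. Crabp1, a cytoplasmic retinoic acid binding protein, averaged 1991 in Ge6 and 15.6 in Ge2. The group also held Lrrn3, a leucine-rich repeat membrane protein, at 1521 against 11.5, the noncoding RNA H19 at 1547 against 14.7, and Bex4 at 976 against 10.03. In all of these the 3 Ge6 arrays stood far above the Ge2 arrays, whose means were near background.

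The 15 largest differences towards Ge2 named other kinds of gene. Postn, the secreted matrix protein periostin, read 11.51, 10.99 and 14.1 in Ge6 and 2204, 2557 and 2464 in Ge2, a log2 difference of -7.63 (SE 0.08, adjusted p = 1.87e-38 by limma). Next came Ifitm3, an interferon-induced membrane protein (-7.35), Nid1, the basement membrane protein nidogen (-7.35), Cryab, a small heat shock chaperone (-7.26), and Igfbp7, a secreted growth factor binding protein (-6.95). Others were Agt, which encodes angiotensinogen, at 13.8 against 1385, the caveolar protein gene Cavin3 at 26.8 against 2642, the tetraspanin gene Cd9 at 50.5 against 3649 and the alarmin Il33 at 35.7 against 2417. Slc15a2, a peptide transporter, averaged 14.4 in Ge6 and 873 in Ge2. For Postn, Nid1, Agt and Slc15a2 the Ge6 mean itself was near background, so these genes were bright in Ge2 and close to the floor of the array in Ge6.

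Ventral forebrain transcription factors were higher in Ge6 (18 genes measured, 13 called higher and 1 lower, 10 of them at least 2-fold higher, median log2 difference 1.43). Dlx1, a homeodomain factor of the ganglionic eminence, read 2277, 2566 and 2528 in Ge6 and 11.4, 13.5 and 19.8 in Ge2. Dlx5, of the same family, read 863, 853 and 885 against 15.9, 15.2 and 14.7. The log2 differences were 7.40 (SE 0.17, adjusted p = 4.19e-29) and 5.83 (SE 0.19, adjusted p = 1.5e-24) by limma, and neither set of arrays overlapped. The Ge2 means of Dlx1 and Dlx5, 14.9 and 15.3, were near background. Neither Dlx2 nor Dlx6 was analysed here.

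Other factors of the striatal and interneuron lineages showed the same order. Bcl11b, a zinc finger factor of striatal projection neurons, averaged 597 ± 92.5 (SD, n = 3) in Ge6 and 11.1 ± 0.257 in Ge2. Meis2, a homeodomain cofactor, averaged 1603 against 112, and the ETS factor Etv1 1972 against 163. The 1 factor lower in Ge6 was Foxp1, a forkhead factor of striatal neurons, with 147, 169 and 127 in Ge6 and 445, 217 and 406 in Ge2 (log2 difference -1.21, adjusted p = 9.02e-08 by limma). Its Ge2 arrays were uneven, but all lay above those of Ge6. Isl1, Six3 and Dlx3 did not pass the test.

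Genes of GABA synthesis and storage were higher in Ge6, while genes of GABA breakdown and uptake were not. Among 10 measured genes 5 were called higher and 4 lower, beside 27.6% and 30.9% of all genes. Slc32a1, the vesicular GABA transporter, read 416, 397 and 440 in Ge6 and 12.2, 12.3 and 10.8 in Ge2 (log2 difference 5.15, SE 0.16, adjusted p = 2.63e-25 by limma). Gad2, a glutamate decarboxylase enriched at nerve terminals, read 382, 403 and 399 against 38.8, 40.8 and 50.03 (3.20, SE 0.11, adjusted p = 8.64e-24). Both genes separated the clones without overlap, with the transporter near background in Ge2.

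Gad1, the other glutamate decarboxylase, differed less and was well measured in the nonneuronal clone as well. Its arrays read 2785, 3116 and 3067 in Ge6 and 807, 926 and 898 in Ge2, a log2 difference of 1.77 (SE 0.13, adjusted p = 1.49e-14 by limma). The Ge2 mean was 877 ± 62.0 (SD, n = 3), and the day 7 means of L2.2, Ctx8 and L2.3 were 252, 98.9 and 8.72, a contrast that was not tested. A second, dimmer probe set of Gad1 gave a log2 difference of 3.03. Slc12a5, the potassium chloride cotransporter of mature neurons, averaged 92.7 in Ge6 and 18.7 in Ge2. Its counterpart in immature cells, Slc12a2, was slightly lower in Ge6, at 360 against 520.

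Abat, the GABA transaminase that breaks the transmitter down, read 20.6, 18.1 and 23.6 in Ge6 and 98.3, 116 and 103 in Ge2 (log2 difference -2.35, adjusted p = 1.67e-18 by limma). The other 2 genes called lower, Aldh5a1 and the transporter Slc6a11, averaged at most 16.3 in either clone. Both calls were lost without the third Ge6 array and without the second Ge2 array, which left 2 genes called lower, and that of Slc6a11 also without the second Ge6 or the third Ge2 array.

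Neuropeptides and interneuron markers were split, with 17 of 29 genes called higher in Ge6 and 2 lower, beside 27.6% and 30.9% of all genes. Npy, the neuropeptide Y precursor, read 1457, 1378 and 1190 in Ge6 and 10.7, 13.8 and 11.8 in Ge2 (log2 difference 6.80, adjusted p = 1.8e-32 by limma). Cnr1, the cannabinoid receptor of many interneurons, averaged 1837 against 17.3. Sst, the somatostatin precursor, read 314, 181 and 173 in Ge6, an uneven set, and 10.5, 11.4 and 11.2 in Ge2. Cck, the cholecystokinin precursor, averaged 223 against 11.8.

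The 2 genes on the other side were bright in the nonneuronal clone. Reln, the secreted glycoprotein reelin of interneurons and Cajal-Retzius cells, read 4069, 4140 and 4191 in Ge2 and 318, 271 and 257 in Ge6 (log2 difference -3.88, SE 0.16, adjusted p = 6.69e-22 by limma). Beside its Ge2 mean of 4133 the day 7 means of L2.2, Ctx8 and L2.3 were 1753, 170 and 269. Htr3a, a serotonin-gated channel subunit found in a class of interneurons, averaged 18.4 in Ge6 and 175 in Ge2.

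The neuronal cytoskeleton was the most uniform of the neuronal groups: 31 of 35 genes were called higher in Ge6, 29 of them at least 2-fold, and 2 lower, with a median log2 difference of 2.19. Mapt, the microtubule protein tau, read 2428, 2305 and 2414 in Ge6 and 12.6, 11.9 and 12.2 in Ge2. Dcx, doublecortin of migrating neurons, read 1878, 2032 and 1943 against 13.4, 13.2 and 16.5. Tubb3, the neuronal beta tubulin, read 1386, 1277 and 1417 against 10.9, 9.61 and 10.2. The log2 differences were 7.61, 7.09 and 7.06, with adjusted p of 8.16e-32, 1.76e-30 and 1.58e-37 by limma. All 3 genes were near background in Ge2. Second, dimmer probe sets of Dcx and Tubb3, with mean intensities of 16.0 and 12.6, showed differences of only 1.19 and 0.09.

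Stmn3 and Stmn4, microtubule-destabilising stathmins, averaged 1345 and 1246 in Ge6 and 16.3 and 12.9 in Ge2. On the Ge2 side were Tuba4a, an alpha tubulin (27.8 against 396), and Map1a, a microtubule-associated protein (29.99 against 48.8). Dclk1, a doublecortin relative, was bright in both clones at 1197 and 1109 and did not pass the test (adjusted p = 0.273 by limma), but a second probe set with a mean intensity of 77.2 was called higher in Ge6 by 4.45 (adjusted p = 1.23e-26), so the probe sets of this gene disagree. In bulk cultures, fewer cells of a type and less RNA per cell cannot be told apart, here or in the groups that follow.

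**Figure D2:**
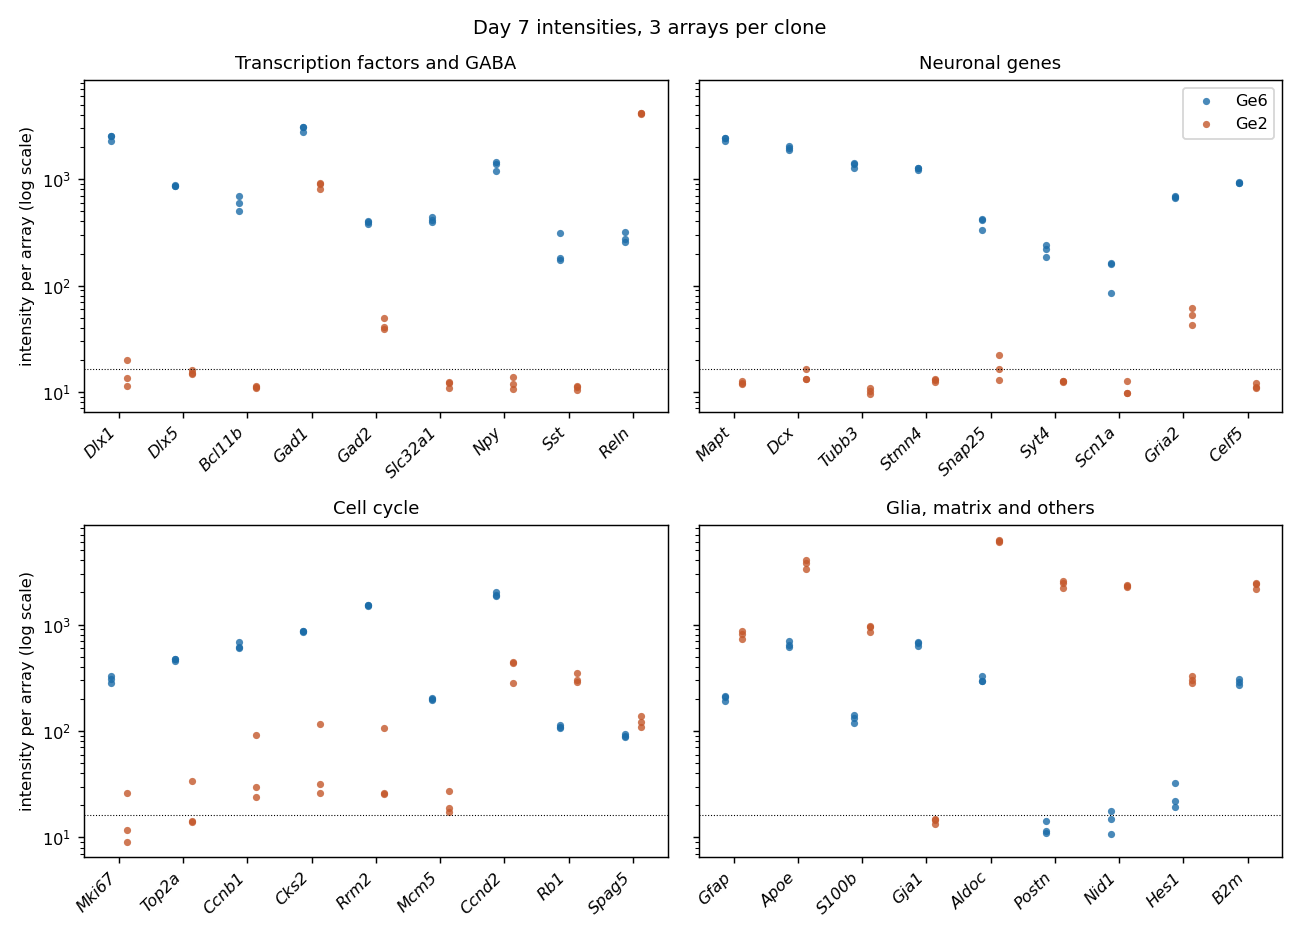
Intensities of selected genes on each of the 3 Ge6 (blue) and 3 Ge2 (orange) arrays at day 7, on log axes, with a dotted line at the background level of 16.3. Ge6 and Ge2 points do not overlap for any gene shown. Over all 12749 genes they overlap in only 4997, so this is no trait of the genes shown. Among the cell cycle genes 1 Ge2 array lies above the other two for Mki67, Top2a, Ccnb1, Cks2, Rrm2 and Mcm5.

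Synaptic genes were higher in Ge6 to a lesser degree, with 26 of 38 called higher and 5 lower, 16 and 1 of them by at least 2-fold, and a median log2 difference of 0.55. Snap25, a membrane fusion protein of the nerve terminal, read 426, 418 and 334 in Ge6 and 13, 22.3 and 16.3 in Ge2 (4.54, adjusted p = 3.07e-23 by limma). Syt4, a synaptotagmin, averaged 215 against 12.5, and Rab3a, a vesicle GTPase, 887 against 80.9. Vamp1, a vesicle fusion protein, was instead lower in Ge6, at 35.6 against 162. Sv2b, a vesicle glycoprotein, was bright in both clones but called lower in Ge6, with 807 ± 17.1 in Ge6 and 1527 ± 346 in Ge2 (SD, n = 3; log2 difference -0.90). A second probe set, with a mean intensity of 44.5, gave -3.95.

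Channels and receptors gave fewer calls, and many were near background. Of 41 voltage-gated channel genes 17 were called higher and 6 lower, beside 27.6% and 30.9% of all genes. Near background in both clones were 19. Scn1a, a sodium channel of inhibitory neurons among others, read 160, 162 and 85.9 in Ge6 and 9.71, 12.7 and 9.82 in Ge2. Scn3b, a sodium channel beta subunit, averaged 194 against 12.7, and Kcnd2, a potassium channel, 159 against 14.7. Kcnab1, a potassium channel beta subunit, went the other way at 21.7 against 149.

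Of 55 transmitter receptor genes 22 were called higher in Ge6 and 2 lower, beside 27.6% and 30.9% of all genes. Near background in both clones were 36. The receptor gene Npy1r, for neuropeptide Y, read 443, 469 and 376 in Ge6 and 11.3, 10.2 and 10.8 in Ge2 (5.31, adjusted p = 6.35e-32 by limma). Gria2, an AMPA receptor subunit, averaged 682 against 52.1. Adora1, an adenosine receptor, was lower in Ge6 at 23.4 against 97.4.

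Neuronal RNA-binding proteins and transcription factors were higher in Ge6 for 18 of 36 genes and lower for 4, beside 27.6% and 30.9% of all genes. Celf5, an RNA-binding splicing factor of brain, averaged 925 against 11.4. Elavl2, an RNA-binding protein of neurons, averaged 644 against 13.9, Runx1t1, a corepressor, 1523 against 37.7, and Myt1l, a zinc finger factor that represses non-neuronal genes, 524 against 13.3. Ptbp1, a splicing repressor of non-neuronal cells, averaged 276 in Ge6 and 728 in Ge2 (log2 difference -1.41, adjusted p = 3.62e-19 by limma). Rest, a repressor of neuronal genes, was close to background in both clones at 18.1 and 21.2 and did not pass (adjusted p = 0.109).

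Adhesion and axon guidance genes included 41 of 62 called higher in Ge6 and 8 lower. Negr1 and Ntm, immunoglobulin-domain adhesion proteins of neurons, averaged 1199 and 1221 in Ge6 and 18.99 and 20.1 in Ge2. Nrxn3, a presynaptic neurexin, averaged 779 against 14.1, and Robo2, an axon guidance receptor, 445 against 13.5. Cxcr4, the chemokine receptor that guides migrating interneurons and other precursors, was lower in Ge6, with 169, 195 and 158 against 1776, 1818 and 1749 in Ge2 (-3.36, adjusted p = 3.71e-27 by limma). Nlgn1, a postsynaptic neuroligin, was also lower in Ge6 at 11.7 against 90.6.

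**Figure D3:**
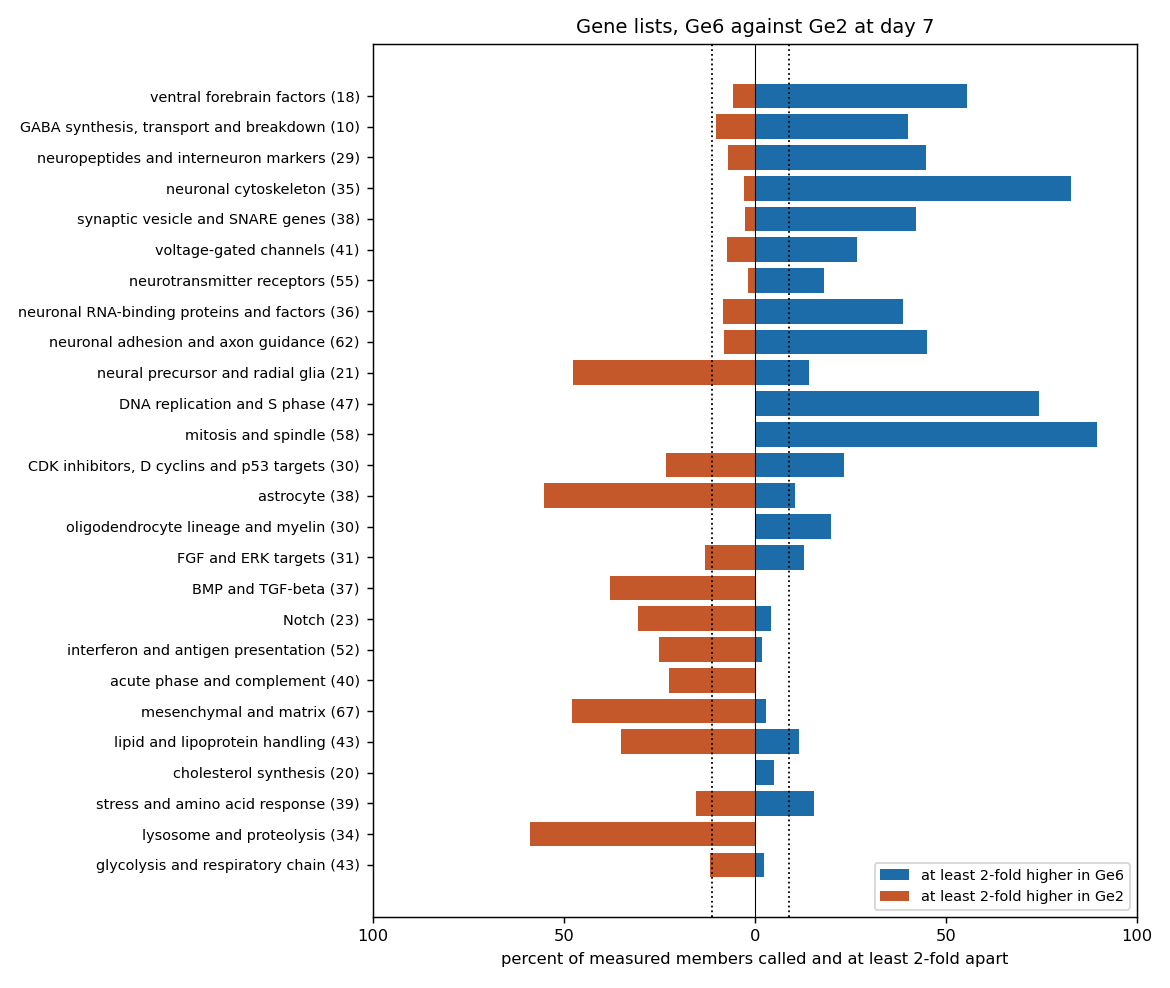
Percent of the measured members of each gene list that were called and at least 2-fold higher in Ge6 (blue, to the right) or in Ge2 (orange, to the left) at day 7, with the number of measured members in brackets. Dotted lines mark the same shares over all 12749 genes, 8.85% and 11.3%. Mitosis, the neuronal cytoskeleton and DNA replication reach furthest to the right, and lysosomal, astrocyte, matrix and precursor genes furthest to the left.

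Genes of the dividing cell were higher in Ge6. Of 58 mitosis and spindle genes 57 were called higher and 1 lower, with 52 at least 2-fold higher and a median log2 difference of 2.79. Mki67, a marker of cycling cells, read 327, 280 and 308 in Ge6 and 26.1, 11.7 and 8.99 in Ge2. Ccnb1, the mitotic cyclin, read 690, 599 and 615 against 91.3, 23.7 and 29.6. Top2a, the topoisomerase of dividing cells, read 451, 473 and 478 against 34.2, 14.2 and 14.0. Adjusted p values by limma were 2.58e-21, 6.28e-18 and 7.38e-23, with log2 differences of 4.44, 3.99 and 4.62.

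The first Ge2 array stood above the other Ge2 arrays across this group. It was the highest of the 3 in 46 of the 58 genes, and its median over them was 33.2 against 20.2 and 21.2. Without it the median difference of the list was 2.97 in place of 2.79, and the differences of Ccnb1, Cks2, a subunit of the cyclin-dependent kinases, and Ube2c, a ubiquitin conjugating enzyme of mitotic exit, went from 3.99, 4.23 and 4.95 to 4.58, 4.90 and 5.59. The 1 gene lower in Ge6 was Spag5, a spindle protein, at 89.8 against 122.7 (adjusted p = 6.18e-05 by limma), and it was no longer called when the test demanded a 1.2-fold difference.

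DNA replication and S phase genes numbered 47, of which limma called 42 higher in Ge6 and 0 lower, also 0 at an unadjusted p under 0.05, with a median log2 difference of 1.66. Rrm2, a ribonucleotide reductase subunit, read 1523, 1495 and 1535 in Ge6 and 107, 25.5 and 25.96 in Ge2. Its difference of 5.20 became 5.88 without the first Ge2 array. Cdc45 and Mcm5, parts of the replicative helicase, averaged 296 and 199 against 24.2 and 21.2, and Ccne1, the cyclin of S phase entry, 250 against 27.9. Mcm2, another helicase subunit, averaged 166 and 159 and did not pass (adjusted p = 0.653 by limma), nor did Rfc1 and Cdk2.

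Promoter sequences of 4 of these genes are shown because genes of the cell cycle were the most uniform group and share known promoter elements. Each is the 250 bases before the annotated start in the RefSeq annotation of build GRCr8, 5′ to 3′ on the strand of the gene. Capitals mark matches on either strand to the cell cycle homology region, CHR, searched as TTTGAA, and to the NF-Y box CCAAT. In Mcm5 they mark the E2F element, searched as GCGGGAA, and the NF-Y box. In Mki67 a CHR and an NF-Y match share 1 base.
Mki67 (chr1:199952594-199952843, - strand): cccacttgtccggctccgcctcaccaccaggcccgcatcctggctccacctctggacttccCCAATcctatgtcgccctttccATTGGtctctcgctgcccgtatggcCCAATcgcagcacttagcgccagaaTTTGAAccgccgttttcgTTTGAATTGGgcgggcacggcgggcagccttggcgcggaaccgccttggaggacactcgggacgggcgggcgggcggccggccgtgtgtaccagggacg
Top2a (chr10:84473094-84473343, - strand): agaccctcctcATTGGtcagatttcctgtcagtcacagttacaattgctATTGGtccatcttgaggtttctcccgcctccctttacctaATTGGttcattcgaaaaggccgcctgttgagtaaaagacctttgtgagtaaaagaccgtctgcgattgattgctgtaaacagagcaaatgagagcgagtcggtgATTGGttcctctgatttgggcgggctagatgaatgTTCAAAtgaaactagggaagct
Cks2 (chr17:13727520-13727769, - strand): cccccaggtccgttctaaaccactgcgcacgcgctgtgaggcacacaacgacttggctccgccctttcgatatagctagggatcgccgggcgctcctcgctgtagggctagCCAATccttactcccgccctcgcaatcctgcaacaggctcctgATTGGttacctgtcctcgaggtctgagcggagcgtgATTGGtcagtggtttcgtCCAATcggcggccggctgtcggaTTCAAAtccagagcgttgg
Mcm5 (chr19:13488563-13488812, + strand): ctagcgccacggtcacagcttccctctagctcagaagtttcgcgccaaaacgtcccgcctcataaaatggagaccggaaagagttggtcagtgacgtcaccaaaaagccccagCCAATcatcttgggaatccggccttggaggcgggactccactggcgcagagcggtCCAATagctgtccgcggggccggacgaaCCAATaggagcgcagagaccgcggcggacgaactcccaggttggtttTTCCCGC

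The window searched for counts ran from 250 bases before to 50 after the start. A CHR match was held by 35 of the 51 mitosis genes with a promoter in the table (68.6%), by 5 of 40 replication genes (12.5%) and by 18.3% of all 33469 promoters. The NF-Y box was held by 39 of the mitosis genes (76.5%), 25 of the replication genes (62.5%) and 37.5% of all. The E2F element was held by 5 of the mitosis genes (9.8%), 18 of the replication genes (45.0%) and 4.21% of all. These matches describe letters in a window and are neither measured sites nor causes of the differences.

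Cell cycle brakes and D-type cyclins were mixed, with 12 of 30 genes called higher in Ge6 and 11 lower, beside 27.6% and 30.9% of all genes. Ccnd2, a D-type cyclin, read 1854, 2027 and 1876 in Ge6 and 280, 447 and 436 in Ge2, and Cdkn1c, a cyclin-dependent kinase inhibitor, averaged 162 against 22.2. Lower in Ge6 were Rb1, the retinoblastoma protein, at 110 against 314, Gadd45g, a growth arrest gene, at 36.5 against 183, and Tob1, an antiproliferative protein, at 104 against 285. Plk2, a p53-induced kinase, was higher in Ge6 at 136 against 17.6.

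Astrocyte genes lay mostly on the Ge2 side. Of 38 measured, 26 were called lower in Ge6 and 5 higher, 21 and 4 of them by at least 2-fold, with a median log2 difference of -1.78. Gfap, the astrocyte intermediate filament, read 214, 193 and 208 in Ge6 and 726, 866 and 807 in Ge2. Apoe, the brain lipoprotein, read 701, 645 and 620 against 3306, 4065 and 3780. S100b, a calcium-binding protein, read 133, 142 and 119 against 858, 952 and 975. The log2 differences of -1.96, -2.50 and -2.83 had adjusted p of 2.13e-13, 1.53e-13 and 4.11e-18 by limma, and the clones did not overlap.

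Larger differences belonged to Aldh1a1, an aldehyde dehydrogenase (11.8 against 594), Entpd2, an ectonucleotidase (39.5 against 1586), Timp3, a protease inhibitor (41.0 against 1134), and Aldoc, the brain aldolase (305 against 6066). Gja1, the gap junction protein of astrocytes, went the other way, with 666, 685 and 628 in Ge6 and 13.3, 14.6 and 14.8 in Ge2 (5.53, SE 0.10, adjusted p = 4.39e-32 by limma). Aqp4, the water channel of astrocyte endfeet, averaged 469 in Ge6 and 485 in Ge2 and did not pass (adjusted p = 0.875), nor did Sparcl1, a secreted matrix protein, at 235 and 245. In the 3 other clones the day 7 mean of Gja1 was 844, 3583 and 1811 in L2.2, Ctx8 and L2.3, so that Ge2 was the clone at background at day 7. At day 0 Gja1 averaged 911 in Ge6 and 896 in Ge2, and at day 3 it averaged 1143 and 16.1.

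Precursor and radial glia genes were lower in Ge6 for 15 of 21 members and higher for 4. Pax6, a homeodomain factor of cortical radial glia and of some interneuron precursors, read 12.5, 15.4 and 14.7 in Ge6 and 754, 769 and 762 in Ge2 (-5.75, SE 0.10, adjusted p = 2e-32 by limma). Slc1a3, the glial glutamate transporter, averaged 249.4 against 2023, although a second, dim probe set with a mean intensity of 22.5 gave the opposite call (log2 difference 1.20). Cd24, a surface glycoprotein of young neurons and their precursors, was far higher in Ge6, with 3981, 3970 and 3999 against 108, 75.9 and 81.6. Prom1, the surface marker prominin, averaged 95.2 against 22.6.

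The Notch pathway holds neighbouring precursors back from becoming neurons. Of its 23 measured genes 13 were called lower in Ge6 and 6 higher, beside 30.9% and 27.6% of all genes. The receptor Notch1 read 131, 147 and 129 in Ge6 and 1739, 1570 and 1642 in Ge2, and Notch2 averaged 105 against 1076. The target Hes1, a repressor of neuronal differentiation, read 21.9, 19.4 and 32.6 against 281, 327 and 303, and Hes5, another repressor, averaged 15.1 against 131. Nrarp, a feedback inhibitor induced by Notch, averaged 17.2 against 243. The adjusted p values of Notch1, Hes1, Hes5 and Nrarp by limma were 1.62e-29, 7.16e-25, 7.6e-19 and 7.54e-24. On the Ge6 side were Hes6, a relative that favours neuronal differentiation (737 against 329), and the ligand Dll1 (26.2 against 19.9), whose call was lost without the first Ge6 array (adjusted p = 0.095) and without the third Ge2 array (0.0989).

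Oligodendrocyte genes were a smaller group, with 10 of 30 called higher in Ge6 and 1 lower, beside 27.6% and 30.9% of all genes. Their median log2 difference was 0.14, and 16 were near background in both clones. Olig1, a lineage factor, read 265, 261 and 320 in Ge6 and 10.02, 15.7 and 10.05 in Ge2, and Pdgfra, the growth factor receptor of oligodendrocyte precursors, averaged 167 against 22.9. Olig2, the partner of Olig1, was low in both at 21.4 and 11.97 (log2 difference 0.83, adjusted p = 0.000102 by limma). Mbp, myelin basic protein, read 105, 91.8 and 77.8 against 19.1, 22.6 and 21.4, while in Ctx8 and L2.3 it averaged 3782 and 1310. Cnp, Enpp2 and Cspg4 did not pass the test.

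BMP and TGF-beta genes were on the Ge2 side, with 21 of 37 called lower in Ge6 and 3 higher. Bmp6, a ligand, averaged 16.8 against 386, and Ltbp1, which tethers latent TGF-beta, 10.4 against 137. Dimmer probe sets of Bmp6, with mean intensities of 11.9 and 24.4, gave log2 differences of -0.09, not called, and -0.985. The target Id1, an inhibitor of neurogenic factors, read 20.1, 22.8 and 21.8 in Ge6 and 545, 381 and 415 in Ge2 (-4.36, adjusted p = 1.51e-27 by limma). Fstl1, a secreted modulator of the pathway, averaged 50.5 against 778. Smad1, a signal transducer, was higher in Ge6 at 460 against 282. Of 31 FGF and ERK genes 8 were called higher and 9 lower, close to the 27.6% and 30.9% of all genes. Among them were Fgf13, an intracellular FGF of neurons (215 against 11.9), Myc (150 against 14.2), and Fgfbp3, a secreted FGF carrier (148 against 1273).

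Matrix and mesenchymal genes were lower in Ge6 for 39 of 67 members and higher for 6, with 32 and 2 by at least 2-fold. The median log2 difference was -0.95, but it was -0.45 without the first Ge2 array, while the other Ge2 arrays left out gave -0.88 and -0.96. Beside Postn and Nid1 these included Ogn, a small matrix proteoglycan (10.5 against 1290), Serpinh1, a collagen chaperone (33.4 against 2138), and Fmod, fibromodulin (13.9 against 624). Vcan, the proteoglycan versican, was higher in Ge6 with 2126, 2184 and 2145 against 411, 286 and 471 (2.50, adjusted p = 1.34e-21 by limma).

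Of 14 markers of pericytes and smooth muscle, 5 were called lower in Ge6, beside 30.9% of all genes, and 1 higher (2 without the first Ge2 array). The median log2 difference of the list was -0.03, and the summed intensity of the list was 278 to 319 in Ge6 and 1771 to 2625 in Ge2. Tagln, an actin-binding protein of smooth muscle, averaged 44.8 against 1518, Cald1, caldesmon, 85.9 against 383, and Myl9, a myosin light chain, 17.9 against 156. The defining receptors Pdgfrb and Notch3 were low in both clones, at 15.5 and 29.2 and at 12.5 and 17.9, and Acta2 did not pass. The part of such cells in the matrix result was not tested.

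Interferon and antigen presentation genes were lower in Ge6 for 26 of 52 members and higher for 3, beside 30.9% and 27.6% of all genes. Near background in both clones were 25. B2m, the light chain of class I molecules, read 308, 289 and 270 in Ge6 and 2159, 2415 and 2447 in Ge2. Psmb9, an immunoproteasome subunit, averaged 13.2 against 248, Gbp2, a GTPase induced by interferon gamma, 9.02 against 165, and the transcription factor Irf1 19.4 against 237. Adjusted p values of B2m, Psmb9, Gbp2 and Irf1 were 1.38e-25, 1.69e-24, 2.22e-28 and 1.08e-23 by limma, and the arrays did not overlap. Mx2, an antiviral GTPase, averaged 22.3 and 22.1 and did not pass. A second, dimmer probe set of Mx2, with a mean intensity of 12.3, was called lower in Ge6 (log2 difference -0.28, adjusted p = 0.0147 by limma). RT1-Ba and RT1-DMa, of the class II pathway, were slightly higher in Ge6, at 18.8 against 15.2 and 20.8 against 14.2, and the call of RT1-Ba was lost when any one array was left out except the first Ge2 array (adjusted p 0.0504 to 0.129).

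The promoters of B2m and Gbp2 are shown because both genes are known targets of interferon signalling. Each is again the 250 bases before the start in the RefSeq annotation of build GRCr8, and capitals mark the core of the interferon-stimulated response element, searched on both strands as GAAANNGAA.
B2m (chr3:129549080-129549329, + strand): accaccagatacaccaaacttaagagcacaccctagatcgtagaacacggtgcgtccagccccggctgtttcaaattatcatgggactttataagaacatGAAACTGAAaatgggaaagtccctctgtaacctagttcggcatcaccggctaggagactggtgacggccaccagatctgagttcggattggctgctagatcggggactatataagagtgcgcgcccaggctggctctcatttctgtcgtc
Gbp2 (chr2:234005477-234005726, + strand): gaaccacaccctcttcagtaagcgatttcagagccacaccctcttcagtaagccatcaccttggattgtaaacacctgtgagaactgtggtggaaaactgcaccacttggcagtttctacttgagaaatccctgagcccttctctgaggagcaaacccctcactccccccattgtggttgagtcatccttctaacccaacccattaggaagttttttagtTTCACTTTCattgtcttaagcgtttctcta

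This core was held by 25 of 44 interferon and antigen genes with a promoter in the table (56.8%), against 9.71% of all promoters. The homeodomain core TAATTA was in 0 of 12 promoters of ventral forebrain factors and 0 of 8 of GABA genes, against 5.36% of all, which says only that these letters are not in those windows.

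Acute phase and complement genes followed the same direction, with 17 of 40 called lower in Ge6 and 1 higher, beside 30.9% and 27.6% of all genes. In both clones 26 of them were near background. Cp, the copper carrier ceruloplasmin, averaged 29.1 against 622, Vcam1, an adhesion molecule induced in inflammation, 20.2 against 399, and A2m, a protease inhibitor, 317 against 1332. Markers of microglia were near background in both clones for 13 of 15 genes, and their summed intensity was 184 to 194 in Ge6 and 183 to 197 in Ge2. Of these 15 genes 2 were called lower in Ge6, beside 30.9% of all genes, and 0 higher (1 at an unadjusted p under 0.05). The lower ones were Cd14, at 12.3 against 16.0, and Fcer1g, at 11.9 against 15.4. The call of Cd14 was lost without the third Ge2 array (adjusted p = 0.0721 by limma). Aif1 averaged 16.1 and 14.5, Cd68 17.6 and 13.9, and neither passed.

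Lysosomal genes were one-sided, with 26 of 34 called lower in Ge6 and 0 higher by limma. At an unadjusted p under 0.05, and in a fit to the 6 arrays alone, 1 gene was higher. The median log2 difference was -1.16. Ctsh and Ctsc, lysosomal cysteine proteases, averaged 56.2 and 11.3 in Ge6 and 679 and 124 in Ge2, Asah1, the acid ceramidase, 58.3 against 493, and Lamp2, a lysosomal membrane protein, read 305, 332 and 294 against 1470, 1378 and 1649. Ctsf, another protease, averaged 253 and 275 and did not pass (adjusted p = 0.367).

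Lipid handling genes were lower in Ge6 for 25 of 43 members and higher for 7. Abca8a, a lipid transporter, averaged 15.3 against 717 and Srebf1, a regulator of fatty acid synthesis, 32.4 against 211, while Fabp5, a fatty acid carrier, averaged 3643 against 1536 and Abcg1, a sterol exporter, 104 against 22.1. Cholesterol synthesis, by contrast, was close to even: 8 of 20 genes were higher and 7 lower, beside 27.6% and 30.9% of all genes. By at least 2-fold it was 1 and 0 of them. Fdft1, squalene synthase, had the largest difference, at 668 against 319.

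Energy and stress genes were mixed in the same way. Of 43 glycolytic and respiratory genes 14 were called higher in Ge6 and 15 lower, close to the 27.6% and 30.9% of all genes. At least 2-fold apart were 1 and 5. The brain enolase Eno2 averaged 95.5 against 28.9, while the glucose transporter Slc2a1 averaged 47.3 against 259 and the aldolase Aldoa 1588 against 3244. Of 39 stress and amino acid genes 13 were higher and 15 lower, beside the same shares of all genes. Mthfd2, a mitochondrial folate enzyme, averaged 90.2 against 12.8, and Nqo1, a quinone reductase, 20.6 against 498. Atf4, a stress-response factor, averaged 1320 and 1305 and did not pass.

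Marker lists of other cell types were mostly near background. Of 12 endothelial genes limma called 0 higher in Ge6, also 0 at an unadjusted p under 0.05, and 5 lower, or 3 lower without the first Ge6 array, with sums of 133 to 137 in Ge6 and 201 to 241 in Ge2. Of the 5 endothelial genes called lower, 1 was at least 2-fold lower. Over all genes 27.6% were called higher in Ge6 and 30.9% lower. Of the endothelial list, Kdr, Vwf and Tek averaged at most 17.1 in either clone. The call of Tek was lost without the first Ge2 array (adjusted p = 0.766), without the first Ge6 array (0.051) and without the second (0.108). Schwann and neural crest markers gave 1 higher and 3 lower of 11, with sums of 1117 to 1201 and 1996 to 2094. The higher one was Gap43, which alone averaged 746 in Ge6, against 14.2 in Ge2. Of the 3 lower ones 2 were at least 2-fold lower. The defining factor Sox10 averaged 15.2 and 16.9. Ependymal and choroid plexus markers gave 1 higher and 3 lower of 13, with sums of 495 to 551 and 421 to 552. The higher one was Otx2, a homeodomain factor, at 29.4 against 9.29. Skeletal muscle and cartilage markers gave 1 higher and 0 lower of 14 by limma, but 1 lower without the second or the third Ge2 array. Of the 13 found under their listed symbol, 0 were lower at an unadjusted p under 0.05. The sums of the list were 171 to 175 and 164 to 181, and Myog averaged 17.2 and 16.8. The part of such cells in the day 7 results was not tested.

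Most genes called and at least 2-fold apart at day 7 did not meet the same criterion at day 0, while the cells were dividing in FGF2. Of the 1128 genes at least 2-fold higher in Ge6 at day 7, 155 (13.7%) were called and at least 2-fold higher at day 0 too, which is 43.5% of the 356 such genes at day 0. Of the 1447 lower genes 250 (17.3%) were so at day 0, or 53.4% of 468. An opposite 2-fold difference at day 0 was found for 23 and 53 genes. A test of the change itself, the day 7 difference minus the day 0 difference, called 3194 genes that moved towards Ge6 (25.1%) and 3420 that moved towards Ge2 (26.8%).

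Neuronal genes differed in when their difference appeared. The log2 difference of Mapt was -0.08 at day 0, 3.52 at day 3 and 7.61 at day 7, and that of Slc32a1 was 0.27, 3.87 and 5.15. Dlx1 already differed by 3.35 at day 0 and reached 6.96 and 7.40, and Nnat went from 6.43 to 7.92 and 8.82. The changes from day 0 to day 7 of Mapt, Slc32a1, Dlx1 and Nnat were 7.69, 4.88, 4.06 and 2.39, and each was called. Mapt, Dlx1 and Nnat are among the 5 largest day 7 differences towards Ge6. That difference enters the contrast, so their calls were favoured by the choice and support nothing. Of the 35 cytoskeletal genes 30 moved towards Ge6, and their median difference was 0.20, 0.99 and 2.19 on the 3 days.

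Cell cycle genes were level at day 0 and furthest apart at day 3. The median difference of the 58 mitosis genes was -0.09 at day 0, 4.11 at day 3 and 2.79 at day 7, and 56 of them moved towards Ge6 between days 0 and 7. Their median intensity was 460 in Ge6 and 459 in Ge2 at day 0, 397 and 22.2 at day 3, and 177 and 25.4 at day 7. At day 7 the medians of L2.2, Ctx8 and L2.3 were 228, 115 and 266, so Ge2 had the lowest and Ge6 the third of the 5 clones.

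Most astrocyte genes took the opposite course. Their median difference was -0.10, -2.49 and -1.78 on days 0, 3 and 7. From day 0 to day 7, 21 of 38 moved towards Ge2 and 7 towards Ge6, beside 26.8% and 25.1% of all genes. Oligodendrocyte genes were even, with 7 of 30 moving towards either clone. Gfap differed by 0.12, -5.63 and -1.96, and S100b by 1.43, -4.66 and -2.83. The lysosomal median was -0.02, -1.23 and -1.16, with 26 of 34 genes moving towards Ge2. Postn and Ifitm3 were already apart at day 0, by -5.00 and -6.83. Olig2 lost most of a difference it had at day 0, with 3.48 then and 0.83 at day 7, whereas Pax6 differed by -5.73 and -5.75.

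**Figure D4:**
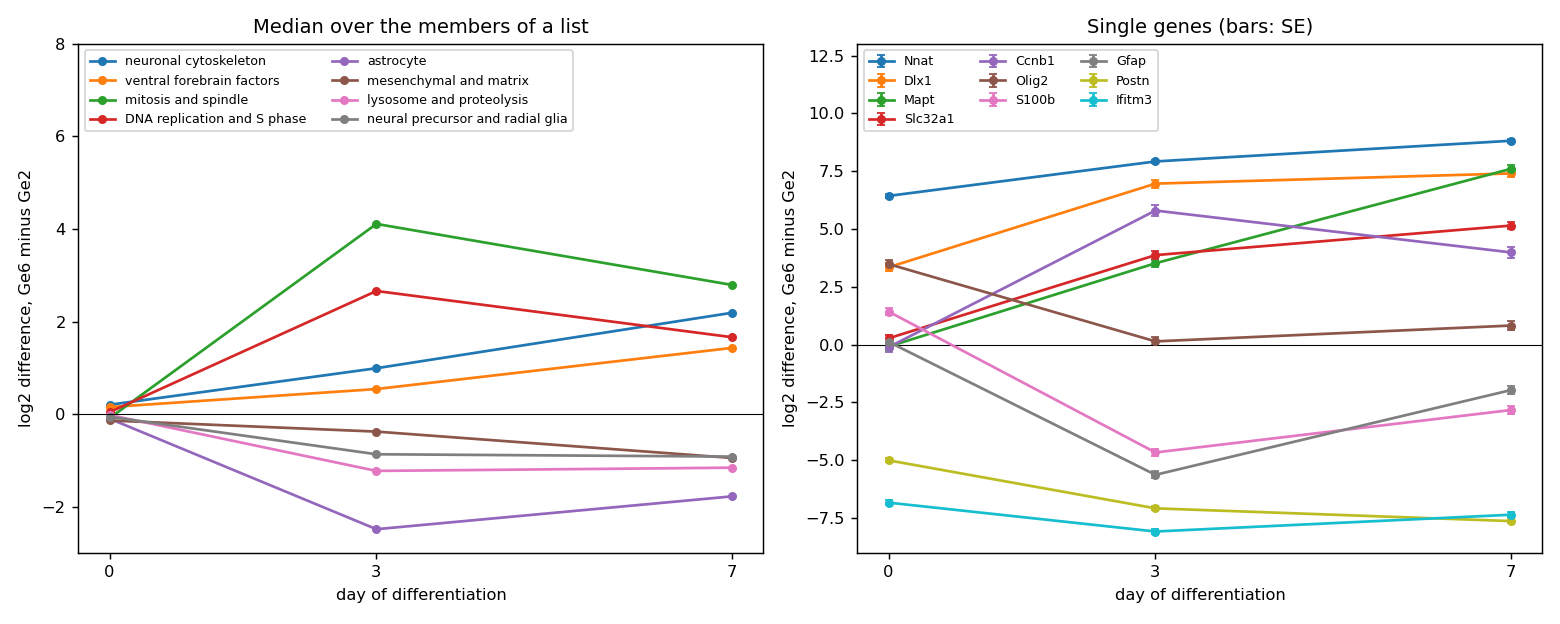
Log2 difference between Ge6 and Ge2 (vertical axes) on days 0, 3 and 7 of differentiation (horizontal axes), as the median over the members of 8 gene lists (left) and for 10 single genes (right, bars are standard errors of the fit). Mitosis genes peak at 4.11 on day 3, the neuronal cytoskeleton reaches 2.19 on day 7, and Nnat and Ifitm3 are far apart from day 0 on.

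The 3 other clones at day 7 put these levels in context. The median intensity of the cytoskeletal list was 746 in Ge6, 571 in L2.2, 419 in L2.3, 214 in Ctx8 and 30.7 in Ge2. For ventral forebrain factors it was 372 in Ge6 and 14.3 in Ge2, with 22.6 in Ctx8, 16.5 in L2.3 and a value between those of Ge6 and Ctx8 in L2.2. For astrocyte genes Ge6 was lowest at 38.2, followed by L2.2 at 152 and L2.3 at 360, with Ge2 at 539 and Ctx8 at 711. For matrix genes the order from the top was Ge2 at 31.0, L2.2 at 26, Ctx8 at 19.4, L2.3 at 16.0 and Ge6 at 14.0. These medians are given as values, and differences between neighbours in each order were not tested.

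**Figure D5:**
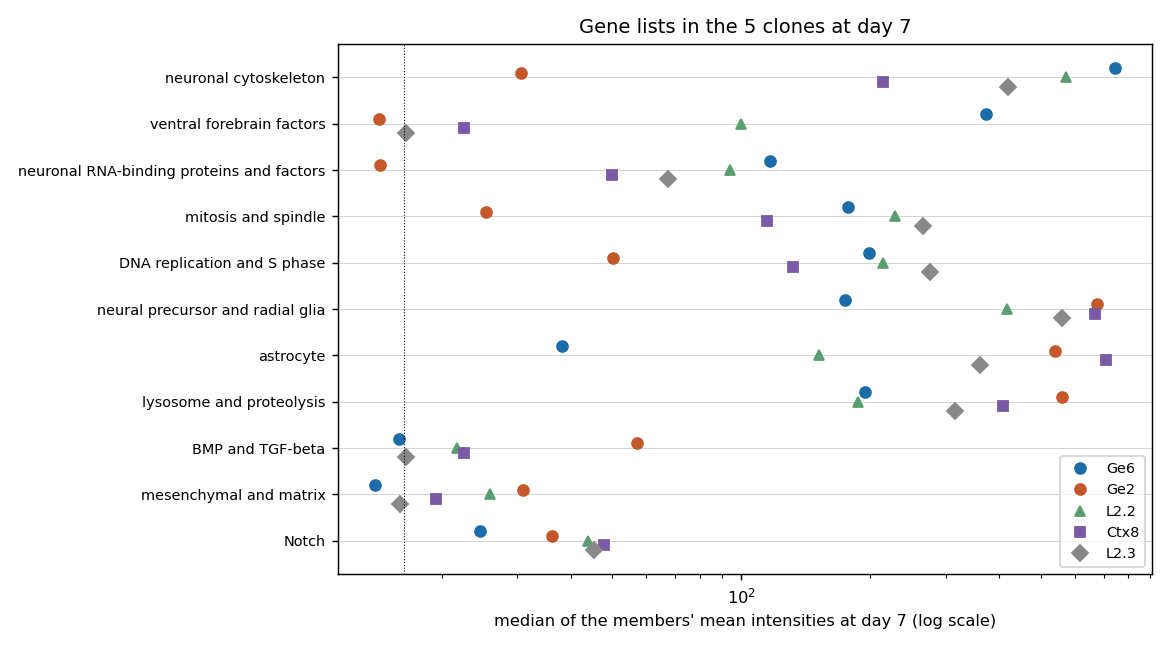
Median over the members of 11 gene lists of the day 7 mean intensity (horizontal axis, log scale) in each of the 5 clones, with a dotted line at the background level of 16.3. Ge6 is highest for the neuronal cytoskeleton (746) and ventral forebrain factors (372) and lowest for astrocyte genes (38.2), and Ge2 is lowest for mitosis genes (25.4).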

How the data were processed

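Total RNA of 44 cultures was hybridised to 1 Affymetrix array each. The deposited table gave linear intensities, 1 for every probe set on an array. Per the submitters' processing notes the authors used GCOS, which reads the scanned arrays, and RMA, which removes background and brings probe signals to a common scale. Their versions are not given in the sources used here. Arrays scaled to each other cannot show a change in total RNA per cell, and 3 arrays a group limit the precision. No detection call, scan date or batch was used here.

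The platform annotation gave exactly 1 gene for 17547 of 24183 probe sets, several for 213 and none for 6423. Gene IDs updated 17450 symbols, and 97 stayed as the platform had them. Where a gene had several probe sets, the one with the highest mean over the 44 arrays was taken, leaving 12749 genes. Intensities ran from 6.39 to 12734, and log2 was taken without a pseudocount.

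One mean for each of the 15 groups of clone and day was fitted in limma 3.58.1 (lmFit and eBayes, R 4.3.3). The fit had 29 residual degrees of freedom, and the median SD was 0.122. Contrasts were Ge6 minus Ge2 at day 7, and that difference minus its day 0 value. Tests were 2-sided, with Benjamini-Hochberg adjustment across all 12749 genes, and calls were made below 0.05. The pipeline was tested on simulated data.

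The 32 gene lists, 6 of them markers of other cell types, and the members were chosen with earlier results of these data known. Named genes were a fixed set of lineage and cell cycle genes, the 15 largest called differences on each side without overlap of arrays, and per list up to 5 called members on each side and the 3 brightest that did not pass. Defining markers of other cell types could be named with their level. Promoters came from RefSeq on GRCr8, with an entry for 259 of 338 named genes.

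As alternatives, arrays were quantile normalized or shifted to one median, dim genes were dropped, probe sets were averaged per gene or tested singly, arrays were weighted, the variance was estimated with a trend and robustly, a 1.2-fold minimum was tested, the 6 arrays were fitted alone (12 for the change), the replicate number was a block, and each array was left out in turn.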

Additional observations from a re-analysis of the deposited data

Results flagged for a closer look

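For 22 genes the difference between Ge6 and Ge2 was itself different at day 7 and day 0, by the limma contrast of the day 7 difference minus the day 0 difference. The genes were a fixed set and the 5 largest day 7 differences on each side, and values are in log2. Over all genes the same contrast called 25.1% towards Ge6 and 26.8% towards Ge2. The genes taken for the size of their day 7 difference, which enters this contrast, were favoured by that choice, so their values are a description and support nothing. They are Nnat, Igfbpl1, Mapt, Dlx1, Dcx, Postn, Ifitm3, Nid1, Cryab and Igfbp7, of which Mapt, Dlx1 and Dcx also belong to the fixed set. Towards Ge6 moved the transcription factors Dlx1 (4.06) and Dlx5 (2.40), the GABA genes Gad1 (1.35), Gad2 (3.07) and Slc32a1 (4.88), and the neuronal genes Dcx (5.50), Tubb3 (5.27) and Mapt (7.69). Mbp (2.07), the cell cycle genes Mki67 (4.34) and Ccnb1 (4.10), and Nnat (2.39) and Igfbpl1 (4.06) did the same. Towards Ge2 moved the glial genes Gfap (-2.08), Apoe (-2.23) and S100b (-4.26), Olig2 (-2.66), and Postn (-2.63), Nid1 (-2.33), Cryab (-2.72) and Igfbp7 (-4.92). Ifitm3 moved by -0.52, and its call was lost with a 1.2-fold minimum in the test (adjusted p = 0.118). Ccnb1 moved by 4.69 without the first Ge2 array at day 7.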

How the results depend on the processing

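The count of 7457 genes called at day 7 and the count of 6614 for the change since day 0 kept within 1.5 times under the alternatives run, with the exceptions given here. With every probe set on its own there were 12911 calls at day 7 (6404 higher in Ge6, 6507 lower, 2057 and 2340 of them by at least 2-fold) and 11102 for the change (5586 towards Ge6, 5516 towards Ge2, 2047 and 2291 by at least 2-fold). That setting tests more features. A 1.2-fold minimum in the test left 2311 genes higher in Ge6 at day 7 and 2084 that moved towards Ge6. Leaving out 1 array at a time gave 7165 to 7258 calls at day 7. Of 5368 values of named genes under the alternatives, 5275 kept direction and side of the threshold, 57 lost the call, 35 gained it and 1 reversed. The reversed gene was Lss, a cholesterol synthesis enzyme, at 0.18 with the mean of its probe sets against -0.14, which had not passed. Its other probe set gave 0.51 and was called higher, so the mean of both lies above 0.

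Replicate numbers did not pair the samples. Deviations of same-numbered Ge6 and Ge2 arrays from their group means correlated at 0.009, -0.081 and -0.048, and no Ge6 array correlated best with its own number. With the replicate block 7465 genes were called at day 7 (3531 higher, 3934 lower) and 6619 for the change.

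Of 173 other probe sets of named genes, 123 made the same call, 49 differed in whether they passed and 1 made the opposite call. Among the 49 were dim probe sets of Serpinh1, Hes5 and Otx2, with mean intensities of 13.7, 12.5 and 11.2, which did not pass. Shifting arrays to one median or quantile normalization put the median difference of all genes at -0.001 and -0.01. Near background, at 16.3 or less, differences are limited by the signal of the array. Every difference is between single clones, and cultures of 1 clone give no measure of the spread between clones.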

Other observations

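The genes of this section were chosen after their values were seen, and the adjusted p values are those of the limma fit over all genes. Imprinted genes differed between the clones in both directions, in a comparison that called 58.5% of all genes. Nnat and H19, at 5448 against 12.2 and 1547 against 14.7, were joined on the Ge6 side by the maternally expressed cell cycle inhibitor Cdkn1c (162 against 22.2), Usp29 (141 against 9.81), Ndn (2319 against 682), Snrpn (1186 against 389) and the growth factor Igf2 (76.6 against 16.3). On the Ge2 side were the zinc finger gene Plagl1 (308 against 949), Sgce (221 against 478), Igf2r (229 against 498) and Meg3 (73.5 against 122). Also called were Dlk1 (39.7 against 21.4) and Grb10 (18.7 against 12.2) on the Ge6 side and Impact (277 against 436) on the Ge2 side. Ube3a and Gnas did not pass the test, with adjusted p of 0.0603 and 0.073. At day 0 H19 and Usp29 differed by 0.81 and -0.19 on the log2 scale, against 6.72 and 3.84 at day 7, whereas Plagl1 differed by -4.82 at day 0 and -1.62 at day 7.

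Nfe2l2, the transcription factor of the antioxidant response, averaged 18.4 ± 1.62 in Ge6 and 290 ± 24.3 in Ge2 (SD, n = 3; log2 difference -3.98, adjusted p = 5.47e-28 by limma). Of 8 further genes of that response, 5 were called lower in Ge6, beside 30.9% of all genes. They were Nqo1 (20.6 against 498), Mgst1 (14.9 against 1054), Aox1 (10.7 against 176), Gclm (66.3 against 184) and Gclc (187 against 249.3). Txnrd1 was higher in Ge6, at 826 against 596, and Hmox1 and Srxn1 did not pass, with adjusted p of 0.943 and 0.901. Hmox1 averaged 19.4 in both clones and Srxn1 14.5 and 14.3.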
